A study of Mus musculus with 7 samples.

Results

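The 8 genes described here form the somatostatin system of the islet as read in sorted mouse alpha cells: the hormone gene Sst, the related hormone gene Cort, the delta cell regulator Hhex, and the receptor genes Sstr1, Sstr2, Sstr3, Sstr4 and Sstr5. They were chosen by symbol among the 55536 genes of the deposited count table, and all 8 were found. The libraries are RNA sequencing of alpha cells sorted from pancreatic islets of C57BL/6J mice by the red fluorescence of tdTomato. In all 7 libraries the cells carried Gcg-iCre, in which the glucagon gene drives Cre, and the Rosa26:tdTomato reporter that this Cre switches on (the series text writes Rosa25). The 3 knockout (KO) libraries were Nkx2.2fl/fl, so that both copies of the Nkx2-2 gene carried sites that Cre cuts, and the 4 control libraries were Nkx2.2+/+. The labels give no age, no sex and no number of animals per library, and do not say that replicates came from separate animals, so p-values measure only the spread between these libraries. The comparison asks how gene expression in alpha cells depends on NKX2.2, a homeodomain transcription factor of islet cells.

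Somatostatin is made by islet delta cells, and it lowers the secretion of glucagon by alpha cells and of insulin by beta cells. Its receptors signal through inhibitory G proteins, which lower cyclic AMP, open potassium channels and close voltage-gated calcium channels. Hhex is a homeobox factor that marks delta cells in the adult islet and maintains their identity, so it is read here beside the ligand gene and other delta cell genes, while the receptors are known in alpha cells themselves. In bulk samples such as these, fewer cells of a type and less RNA per cell cannot be told apart.

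The 2 ligand genes encode peptides that bind the same receptors, which is why their coding ends are shown. Sst lies on chromosome 16 (23889573 to 23890958, minus strand) and Cort on chromosome 4 (149125034 to 149126763, minus strand) in GRCm38. The lines that follow give the last 14 codons of the Sst reading frame, of 116 codons, which encode the short form of the hormone, and the matching stretch of Cort, of 109 codons, which is followed by 1 more codon. Both were taken from GENCODE transcripts, and capitals mark the 12 bases of the receptor-binding core. The stretches shared 31 of 42 bases, and 10 of 12 in the core.
Sst coding end: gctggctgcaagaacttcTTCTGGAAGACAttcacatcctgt
Cort coding end: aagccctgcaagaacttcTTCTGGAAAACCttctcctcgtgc

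The promoters of Sst and Sstr2 are shown because each holds a cyclic AMP response element, the site through which cyclic AMP is known to drive Sst. Each line gives the 160 bases before the RefSeq start site on GRCm38.p6. The GENCODE gene of Sst, whose position is given above, reaches upstream of its RefSeq start. Part of the Sst stretch, with TGACGTCA, therefore lies inside that gene. In Sst (chr16:23890845-23891004, minus strand) capitals mark TGACGTCA at bases -48 to -41 and, at -146 to -140, CACTTTA, the reverse complement of a match to TNAAGTG, the core letters known for NKX2 class factors. In Sstr2 (chr11:113619167-113619326, plus strand) capitals mark TGACGTCA at bases -58 to -51.
Sst promoter: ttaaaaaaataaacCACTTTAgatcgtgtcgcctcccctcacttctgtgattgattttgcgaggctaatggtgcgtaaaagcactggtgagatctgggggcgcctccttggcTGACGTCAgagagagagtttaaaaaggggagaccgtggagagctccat
Sstr2 promoter: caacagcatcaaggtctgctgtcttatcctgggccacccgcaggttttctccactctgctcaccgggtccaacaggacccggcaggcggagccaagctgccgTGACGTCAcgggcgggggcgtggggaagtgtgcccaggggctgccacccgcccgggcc

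Searched on both strands, TGACGTCA was found in 1.79% of 32817 RefSeq promoter windows of 300 bases and TNAAGTG in 11.55%. CCACACCC, a Kruppel-like factor site found in 3.56% of windows, was in none of the windows of Sst, Cort, Hhex, Sstr2, Sstr3 (2 start sites) and Sstr4. Neither TGACGTCA nor TNAAGTG was in those of Cort, Hhex, Sstr3 and Sstr4. Promoters of Sstr1 and Sstr5 were not analysed here. A match describes letters in a window and not binding.

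The libraries held from 45483504 to 72456557 counts. Control 4 stood apart with 31024 genes detected against 23150 to 25873 in the other libraries. The third KO column carries a number that no KO title has and is called the unnumbered KO. Nkx2-2, the targeted gene, had from 8596 to 12297 normalized counts (counts divided by DESeq2 size factors) in controls and from 7534 to 7758 in KO, with no overlap (log2 fold change -0.45, adjusted p = 0.0218). The count covers the whole gene, so it does not show how much of the deleted part remained. Of 8 alpha cell markers 7 were lower in KO, where 2.27% of all genes tested were lower. The summed normalized counts of the 8 ran from 6472430 to 8458990 in controls and from 2963000 to 4274160 in KO. Glucagon (Gcg) took 11.4% to 13.5% of counts in controls and 5.87% to 7.39% in KO. Counts of Y-linked genes were 4 and 0 in controls 1 and 2 and between 1713 and 15305 in the other 5 libraries.

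Among the 8 genes, 5 had enough counts for an adjusted p in DESeq2, the comparison of the study's design text, with a threshold of 0.05. None was higher in KO and 1 was lower, Sstr2, against a background over 17571 genes of 4.51% called, 2.24% higher and 2.27% lower. By edgeR's quasi-likelihood test none of the 5 was called, where 1.05% of all genes tested were, and 1 of them, Sstr2, had an unadjusted p under 0.05. In none of the 5 did KO and control libraries separate without overlap, which 12% of the genes tested in DESeq2 did.

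**Figure D1:**
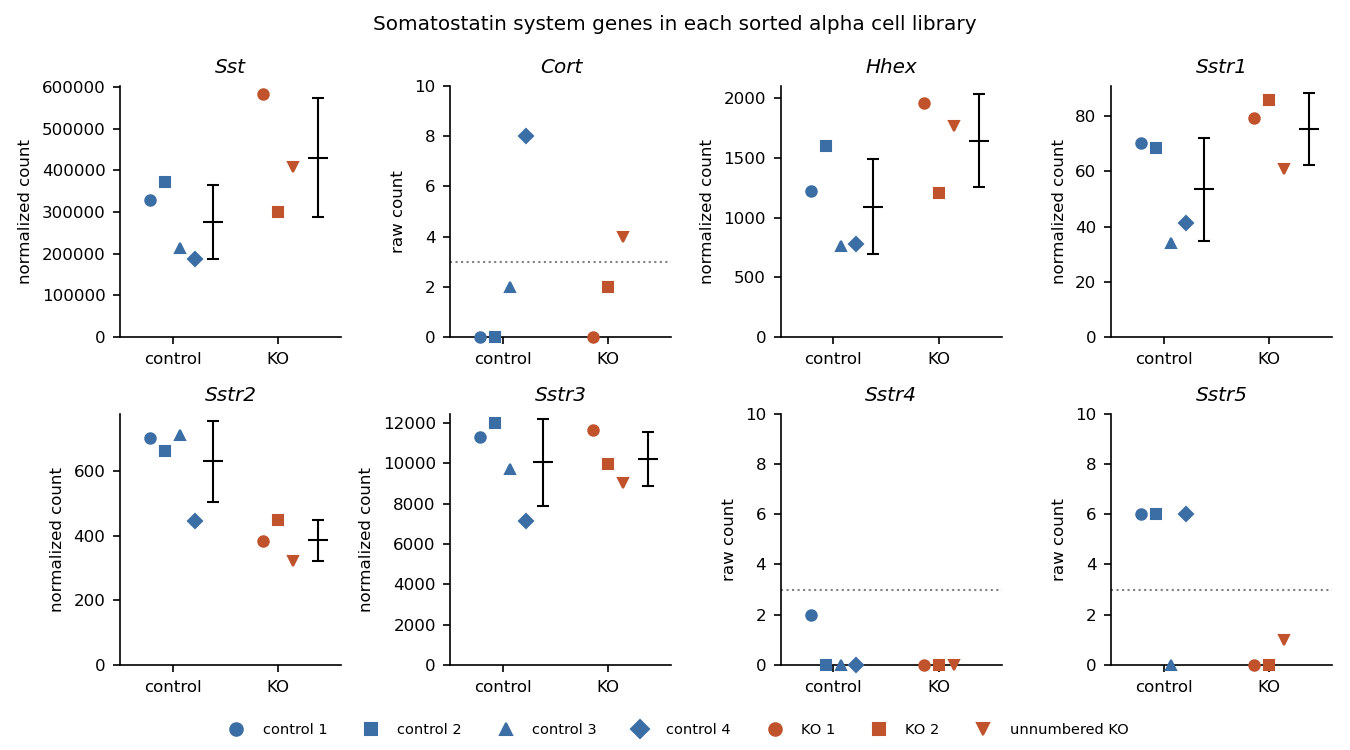
Each panel shows 1 gene in the 4 control (blue) and 3 KO (orange) libraries, as normalized counts, or as raw counts for Cort, Sstr4 and Sstr5, where the dotted line is the floor of 3 counts; black bars are the mean and SD. Sstr2 is lower in all 3 KO libraries than in controls 1, 2 and 3, while control 4 lies just under KO 2.

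Sst was by far the most abundant gene of the system even though the sort was for alpha cells. Controls 1 to 4 held 328795, 372438, 214802 and 186722 normalized counts of it. KO 1 held 582613, KO 2 299707 and the unnumbered KO 408438. KO 1 and the unnumbered KO exceeded every control, but KO 2 lay below controls 1 and 2, so the groups overlapped. As a share of all counts, Sst made up 0.590%, 0.648%, 0.361% and 0.357% of the controls and 1.08%, 0.540% and 0.845% of the KO libraries. The 95% Wilson intervals of these shares, which cover counting error only, were far narrower than the spread between libraries, for example 1.08% to 1.09% in KO 1. The mean was 1.56 times as high in KO (log2 fold change 0.64, SE 0.36, 95% interval -0.06 to 1.35), and the difference did not pass the threshold (adjusted p = 0.513, edgeR 0.542).

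The result for Sst depended on single libraries of both groups. It passed without control 2 (0.82, adjusted p = 0.0212) and without KO 2 (0.84, 0.0338), and in none of the other 5 fits lacking a single library. Leaving out KO 1, the highest, lowered the log2 fold change to 0.36. Controls 1 and 2, which had the higher Sst, are also the 2 libraries with nearly no Y-linked counts. KO 1, the library highest in Sst, had as much Xist, the X inactivation RNA of females (43397 normalized counts), as these controls (43226 and 42539). KO 2 had 25628, and the other 3 libraries had at most 1049, so the covariate and the exclusion do not compare libraries matched for sex-linked RNA. With Y-linked counts as a covariate the log2 fold change of Sst was 1.03 (adjusted p = 1.95e-05). Without controls 1 and 2, a setting added once the values were known, it was 1.10 (0.00151). In the 4 libraries numbered 1 and 2 alone it was 0.33 (adjusted p = 0.999). The part of the Y-linked difference between libraries in the result was not tested.

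Hhex, on chromosome 19 (37434810 to 37440731, plus strand), followed the ligand. Controls 1 to 4 had 1224, 1596, 766 and 777 normalized counts of it, KO 1 had 1959, KO 2 1207 and the unnumbered KO 1765. The same pattern held as for Sst: KO 1 and the unnumbered KO exceeded every control, while KO 2 lay below controls 1 and 2. The log2 fold change was 0.59 (SE 0.27, 95% interval 0.06 to 1.13) and did not pass after adjustment (adjusted p = 0.297, edgeR 0.519). It passed without control 2 (0.83, adjusted p = 0.0197), with the Y-linked covariate (1.01, 9.72e-05) and without controls 1 and 2 (1.09, 0.000686). In the 4 libraries numbered 1 and 2 it was 0.16 (adjusted p = 0.998).

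Set against the ligand, Hhex was nearly level over the libraries. Per 1000 Sst counts controls 1 to 4 held 3.72, 4.28, 3.57 and 4.16 Hhex counts, and the 3 KO libraries held 3.36, 4.03 and 4.32. The highest ratio was 1.29 times the lowest, whereas Sst itself ranged 3.12-fold and Hhex 2.56-fold. The controls averaged 3.93 ± 0.343 (SD, n = 4), and the KO libraries averaged 3.90 ± 0.492 (SD, n = 3).

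Other delta cell genes did not all keep to the ligand. Of 8 listed delta cell markers other than Sst and Hhex, 7 were tested. The list was chosen with earlier results of these data known, so its counts describe it only. The median log2 fold change was 0.82 beside 0.01 over all genes. Of the 7 tested, 3 were higher and none lower, where 2.24% of all genes tested were higher. The 3 were Rbp4, a retinol carrier abundant in delta cells (1.55, adjusted p = 0.0127), Ffar4, a fatty acid receptor (0.49, 0.0292), and Bche, butyrylcholinesterase (2.35, 0.00502). None of them was called by edgeR, and of the 7 fits lacking a single library Rbp4 passed 3, Ffar4 1 and Bche 5. The change of Bche started from a low level, at 6 to 26 raw counts in controls and 76 to 96 in KO. Lepr, the leptin receptor, had no adjusted p and was at 0 in 3 libraries.

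Rbp4 did not keep a level ratio to Sst. In controls 1 to 4 Rbp4 had 15060, 24494, 11752 and 8547 normalized counts, and the KO libraries had 47167, 54008 and 30558. Per 1000 Sst counts this was 45.8, 65.8, 54.7 and 45.8 in controls and 81.0, 180 and 74.8 in KO, so that every KO library lay above every control. Ghsr, the ghrelin receptor, stayed closer to the ligand, with 0.816 to 1.21 counts per 1000 Sst counts in controls and 1.14 to 1.37 in KO. Pdx1, a homeobox factor of beta and delta cells, had 6.11 to 7.92 in controls and 4.44 to 8.38 in KO. Ratios to Sst were not tested.

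**Figure D2:**
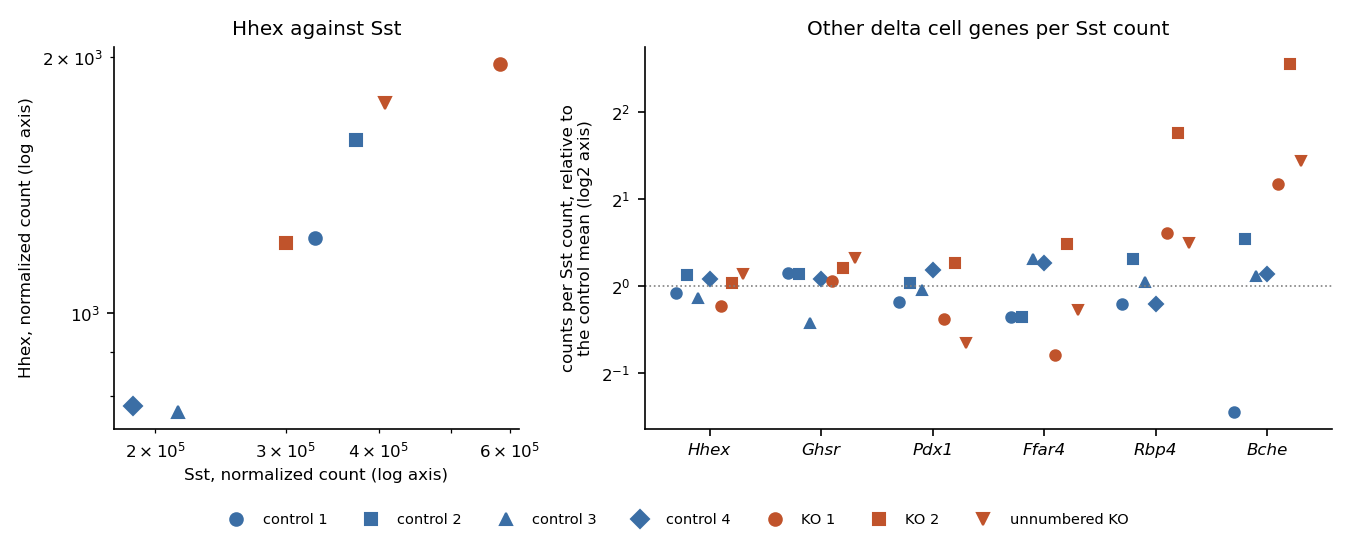
Left, normalized counts of Hhex against Sst in each library, both on log axes; right, counts of 6 delta cell genes per Sst count, relative to the control mean, on a log2 axis. Hhex keeps a ratio between 3.36 and 4.32 per 1000 Sst counts in all 7 libraries, while all 3 KO libraries lie above the controls for Rbp4 and Bche.

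Some markers of other islet cells were higher in KO, as were 2.24% of all genes tested. The summed beta cell markers ran from 336739 to 690569 in controls and from 529402 to 973010 in KO, with 1 of 8 higher (Iapp). Ppy, the hormone gene of gamma cells, had 178540 to 401493 normalized counts in controls and 615185 to 783711 in KO and was higher. In controls, Ppy and Sst were both highest in control 2 and both lowest in control 4. In KO the order differed: KO 1, with the most Sst, had the least Ppy (615185). KO 2, with the least Sst, had 783711, close to the 779688 of the unnumbered KO. The summed delta cell markers, which are nearly all Sst, ran from 197156 to 400134 in controls and from 356973 to 633738 in KO. Duct and endothelial cells are also known to express Hhex. The 4 summed duct markers ran from 803 to 1322 in controls and from 1554 to 2515 in KO, with 1 of 4 higher (Spp1), and the 4 endothelial markers from 163 to 224 and from 111 to 713, with none higher. The part of these cells in the values of Sst and Hhex was not tested.

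Among genes with a mean of at least 100 normalized counts, the pattern of Sst over the 7 libraries was most like that of Sez6l, Tmem215, Fstl5, Bmp3 and Sytl4. The likeness is the root mean square difference of centred log2 values, which was 0.0843 for Sez6l and 0.118 for Sytl4, over 12765 genes. Hhex was the 7th nearest gene to Sst (0.13) and Ghsr the 41st (0.219), while Rbp4 was only the 9752nd (0.632). Nearest to Hhex were Filip1, Scnn1g, Sst, Il4ra and Sez6l, from 0.124 to 0.141.

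Cort, which encodes cortistatin, was at the limit of detection. Controls 1 to 4 had 0, 0, 2 and 8 raw counts, and the KO libraries had 0, 2 and 4. Control 4 and the unnumbered KO, the 2 deepest libraries, were the only ones above the floor of 3 counts, and no adjusted p was given. No difference in Cort was detectable at this depth.

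The 5 receptor genes differed widely in level. The libraries also held counts of beta, delta and gamma cell markers, and the part of such cells in the receptor values was not tested. Per kilobase of exon, Sstr3 stood at 2326 ± 500 normalized counts over the 4 controls (mean and SD) and 2367 ± 312 over the 3 KO libraries. Sstr2 followed with 294 ± 58.7 and 180 ± 29.5, and Sstr1 with 26.1 ± 9.09 and 36.8 ± 6.33. The ranges of these 3 over the libraries did not overlap, so the order Sstr3, Sstr2, Sstr1 held in all 7. Sstr5, at 1.67 in controls and 0.0904 in KO, and Sstr4, at 0.398 and 0, rested on too few counts to be ordered. On the same scale Sst had 382371 in controls and 596744 in KO, and Hhex 216 and 325.

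Sstr2, on chromosome 11 (113619342 to 113626028, plus strand), encodes the receptor through which somatostatin is best known to suppress glucagon secretion in rodents. Normalized counts reached 703, 663 and 712 in controls 1, 2 and 3 but 445 in control 4. KO 1 had 385, KO 2 449 and the unnumbered KO 323. All 3 KO libraries lay below controls 1, 2 and 3, and the groups overlapped only through control 4, which lay just below KO 2. The KO mean was 61.1% of the control mean (log2 fold change -0.71, SE 0.23, 95% interval -1.15 to -0.27), which passed in DESeq2 (adjusted p = 0.0391) and not in edgeR (0.186). Leaving out control 4 gave -0.85 (adjusted p = 0.000299).

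The direction of Sstr2 was lower in KO in every setting tried, but the call was not stable. Of the 7 fits lacking a single library, only those without control 4 and without KO 2 (0.0449) passed, and the adjusted p reached 0.255 without the unnumbered KO. With the Y-linked covariate it was 0.172. Sstr2 lies inside the gene body of Slc39a11, a zinc transporter gene on the opposite strand, but shares 0 exon bases with it. Slc39a11 had 1082 to 1435 normalized counts in controls and 1070 to 1398 in KO.

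Sstr3, on chromosome 15 (78537008 to 78544685, minus strand), encodes a receptor known to sit on primary cilia of islet cells. Controls 1 to 4 showed 11317, 12019, 9706 and 7155 normalized counts, and the KO libraries 11678, 9982 and 9011. All KO libraries lay within the range of the controls. The log2 fold change was 0.03 (SE 0.18, 95% interval -0.32 to 0.37, adjusted p = 0.999), and its sign turned in some settings (-0.11 without control 4).

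Sstr1, on chromosome 12 (58211772 to 58214444, plus strand), encodes a receptor known in beta and delta cells. Controls 1 and 2 had 70.3 and 68.4 normalized counts, controls 3 and 4 had 34.0 and 41.2, and the KO libraries had 79.2, 85.7 and 60.7. The groups overlapped through controls 1 and 2, the same pair that was high for Sst and Hhex. The log2 fold change was 0.49 (SE 0.44, 95% interval -0.38 to 1.36, adjusted p = 0.870), and none of the 7 fits lacking a single library passed.

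Sstr5, on chromosome 17 (25489875 to 25497288, minus strand), encodes the receptor known for suppressing insulin secretion from beta cells. Among controls 1 to 4 the raw counts were 6, 6, 0 and 6, and the KO libraries gave 0, 0 and 1. The sums were 18 counts over the controls and 1 over the KO libraries, and only controls 1, 2 and 4 exceeded the floor of 3 counts. The unadjusted p was 0.11, and no adjusted p was given. Sstr4, on chromosome 2 (148395344 to 148396767, plus strand), a receptor known mainly from brain and lung, had 2 counts in control 1 and 0 in the other 6 libraries, so no library exceeded the floor.

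As a share of the summed receptor level per kilobase, Sstr3 made up 87.8% ± 0.983 in controls and 91.6% ± 1.23 in KO (SD, n = 4 and 3). For Sstr2 the share was 11.0%, 9.89%, 12.8% and 11.0% over controls 1 to 4, against 6.15%, 8.18% and 6.65% over the KO libraries. Control 4, which overlapped KO in the count of Sstr2, did not overlap in this share, since its Sstr3 was low as well. Sstr3 exceeded Sstr2 by a ratio of 7.98, 8.99, 6.76 and 7.97 over controls 1 to 4, and of 15.0, 11.0 and 13.8 over the KO libraries. Every KO library was above every control in this ratio, which was not tested.

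**Figure D3:**
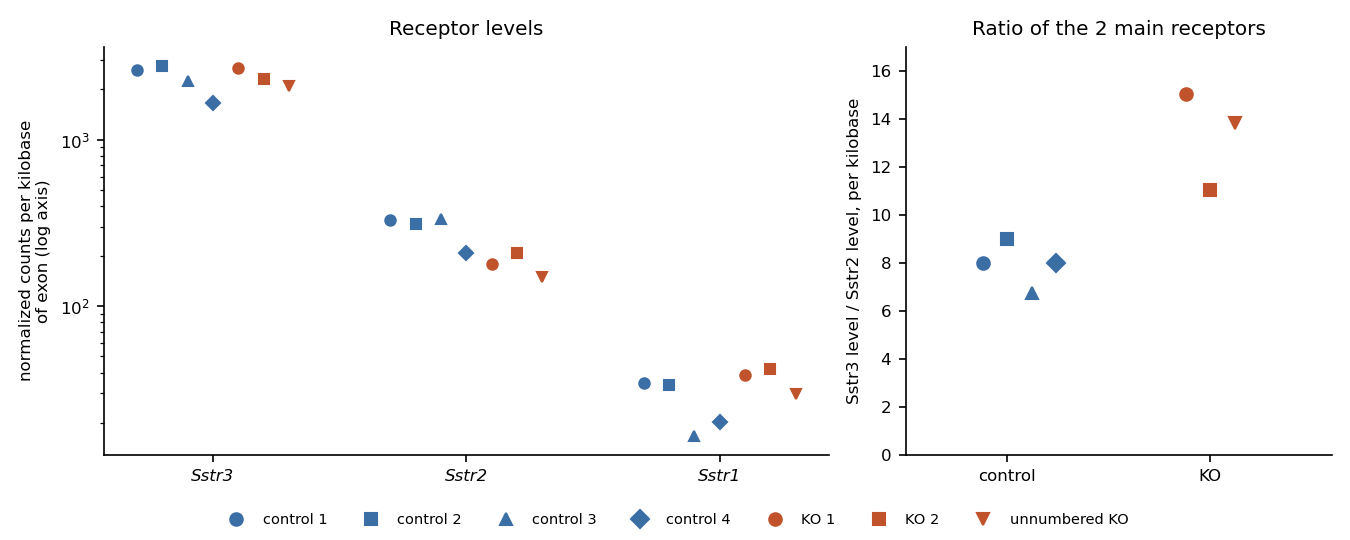
Left, the level of the 3 receptors above the floor in every library, in normalized counts per kilobase of exon on a log axis, by library; right, the ratio of the Sstr3 to the Sstr2 level. The ratio lies between 6.76 and 8.99 in controls and between 11.0 and 15.0 in KO.

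The receptors differed in the genes they resembled over the libraries. Nearest to Sstr3 were Zfp668, Tmem33, Gpr89, Cnih1 and Scg2, with root mean square differences of 0.0511 to 0.0591, and none of these 5 was called. Among the 5 nearest to Sstr2 were Sdhd, Nptxr, Ccnd2 and Snrpe, from 0.140 to 0.149, and these 4 were not called. The other gene of the 5 is not reported here, so the calls of the 4 do not describe all 5. Sst ranked 11567th in likeness to Sstr2, on a difference of 0.783.

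Genes that act with the ligand or the receptors were taken from 8 lists of 43 genes in all. Of the 41 tested, 6 were higher and 4 lower in KO, or 24.4% beside the 4.51% of all genes, and edgeR called 1. The lists were chosen with earlier results of these data known, so this share describes them only. The number called fell to 3 without KO 1 and 4 without control 3, and was 6 without control 1 and without KO 2.

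On the ligand side, 1 of 6 regulators known at the Sst promoter was higher, Isl1, a LIM homeodomain factor (0.44, adjusted p = 0.0225), and the others, Pax6, Pknox1, Creb1 and Pdx1 among them, did not pass. Of 5 enzymes that process prosomatostatin, Pcsk1, a prohormone convertase, was higher (0.85, adjusted p = 0.00877). It ranged from 2025 to 4327 normalized counts in controls and from 5004 to 6887 in KO, without overlap. Pcsk2, the main convertase of alpha cells, stood at -0.06 on the log2 scale (adjusted p = 0.998), and Furin, Pcsk6 and Cpe did not pass. Of the 7 fits lacking a single library Isl1 passed 3 and Pcsk1 5.

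On the receptor side, genes were listed because they act in signalling of the receptors, so that role is not a result. Of these genes 4 were lower (Gnao1, Gnaz, Kcnj3 and Cacna1d) and 1 was higher (Kcnj5). Of 5 inhibitory G protein subunits, Gnao1 (-0.39, adjusted p = 0.000157) and Gnaz (-0.41, 0.0486) were lower and none higher, with a median of -0.36. By edgeR neither passed (adjusted p = 0.128 for Gnao1 and 0.187 for Gnaz). Gnao1 had 41866 to 47156 normalized counts in controls and 32572 to 34391 in KO, and each of the 7 fits lacking a single library called it. Scaled to library totals its adjusted p was 0.0671, and Gnaz passed 2 of those 7 fits.

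Kcnj3 had the smallest adjusted p of the listed genes. It encodes a subunit of the potassium channels that inhibitory G proteins open. Control libraries 1 to 4 had 917, 790, 1144 and 703 normalized counts of Kcnj3, and the KO libraries had 201, 287 and 305. The highest KO library, at 305, was far under the lowest control, at 703. On the log2 scale the change was -1.75 (SE 0.23, adjusted p = 1.87e-11, edgeR 0.0116), and each of the 7 fits lacking a single library called it.

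Kcnj5, which encodes a partner subunit of the same channels, was higher from a very low level. Controls 1 to 4 had 9.08, 4.72, 0 and 2.89 normalized counts of it, against 35.2, 47.5 and 20.7 over the KO libraries (adjusted p = 0.0396, edgeR 0.190). Of the fits lacking a single library, 5 gave it an adjusted p and 2 called it. Kcnj6 was at -0.06 on the log2 scale and did not pass, and Kcnj9 had no adjusted p.

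Of 4 voltage-gated calcium channel genes, Cacna1d, which encodes an L-type channel, was lower (-0.85, SE 0.19, adjusted p = 0.000737, edgeR 0.1). Controls 1, 2 and 3 had 9352, 8661 and 9289 normalized counts, control 4 had 13918, and the KO libraries had 5649, 4503 and 6990. Each of the 7 fits lacking a single library called it, with -0.67 (adjusted p = 0.000325) when control 4 was left out. Cacna1a, Cacna1b and Cacna1c did not pass. None of 6 receptor kinases and arrestins and none of 6 phosphatases downstream of the receptors passed, in DESeq2 or in edgeR.

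**Figure D4:**
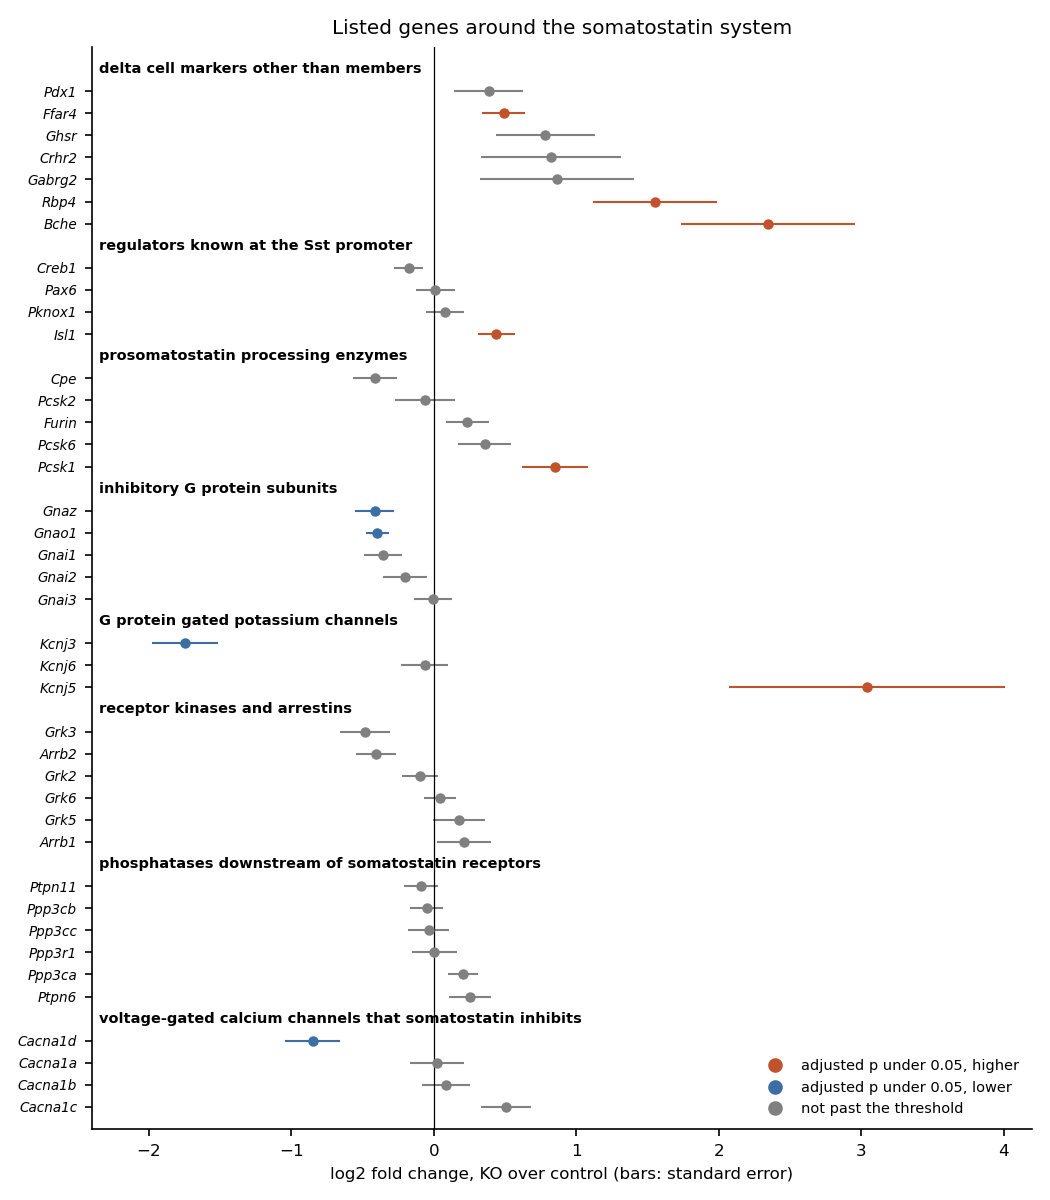
Log2 fold changes, KO over control, of 40 of the 41 tested genes in 8 lists (1 that did not pass is not drawn), with the standard error as bars and colour for the 10 with an adjusted p under 0.05. Pdx1, a member of 2 lists, is drawn once; Kcnj3 lies at -1.75 and Kcnj5 at 3.04.

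**Figure D5:**
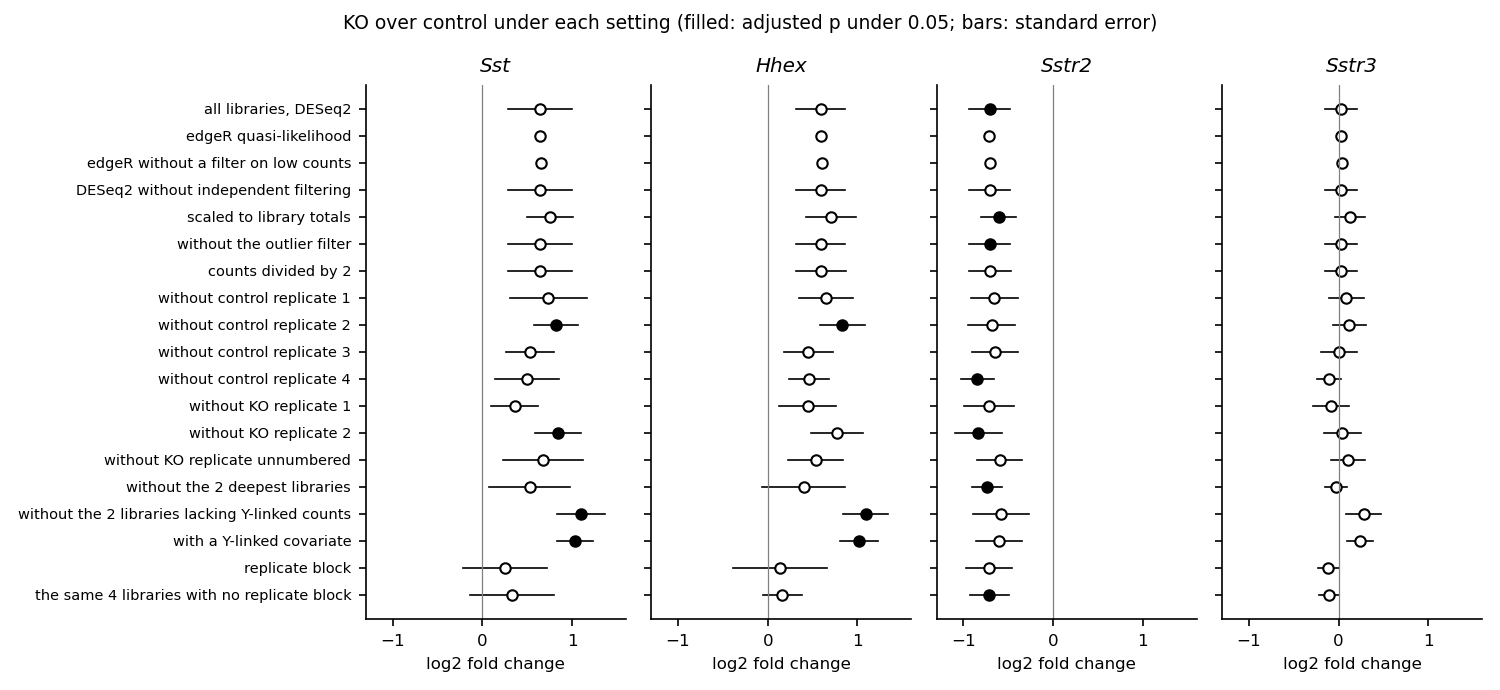
Log2 fold changes of Sst, Hhex, Sstr2 and Sstr3 under each setting of the analysis, with standard errors where the fit gave one (not for edgeR); filled points have an adjusted p under 0.05. Sst and Hhex are filled with the Y-linked covariate at 1.03 and 1.01, and Sstr2 lies below 0 throughout.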

How the data were processed

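Per the labels' protocols, RNA of the sorted cells (Qiagen RNeasy Micro) went into strand-specific Takara SMARTer Pico libraries. The authors deposited whole-number counts per gene and library. FastQC, STAR, featureCounts, DESeq2 and the mm10 build are named in the submitters' processing notes, and the strand setting is not given in the sources used here. Even numbers made up 84.4% to 88.9% of the counts from 1 to 10, so both mates of a pair may have been counted and the independent depth may be lower. Intervals and the 3-count floor cover only counting error.

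Genes with at least 1 count (35178) were compared by the Wald test of DESeq2 1.42.0 under R 4.3.3 (no covariate, independent filtering at 0.05, Benjamini-Hochberg adjustment over all genes tested), the test the design text states. An adjusted p is from this fit unless edgeR is named. The quasi-likelihood test of edgeR 4.0.16 was the first alternative. Other alternatives left out libraries, changed the scaling or the filters, added Y-linked counts as a covariate, or halved the counts. Positions and exon lengths are from GENCODE M21 on GRCm38, which matched all 55536 gene identifiers, and promoters are from RefSeq. Genes named are the 8 genes of the system, Nkx2-2, Gcg, listed genes past the threshold or needed beside them, and the 5 most alike to Sst, Hhex, Sstr2 and Sstr3, except 2 genes that are not reported here. The members and lists were chosen with earlier results of these data known.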

Additional observations from a re-analysis of the deposited data

Results flagged for a closer look

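In 20 genes examined, the highest or lowest of the 4 controls was compared with its nearest neighbour by Dixon's test at the 95% level, and 2 genes held a control that stood apart, where chance gives about 1. For Sstr4 it was control 1, with 2.27 normalized counts against 0 in the other controls, which is 2 raw counts and under the floor of 3. Because the other controls were tied at 0, any count in control 1 would have stood apart, so the chance figure does not apply to Sstr4. For Cacna1d it was control 4, with 13918 normalized counts against 8661 to 9352 in the other controls.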

How the results depend on the processing

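Sst (0.64), Hhex (0.59) and Sstr1 (0.49) kept their sign and Sstr2 (-0.71) stayed negative in all 18 alternatives, while Sstr3 (0.03) turned in 5. Sstr2 passed the threshold in 6 of the 18 and not in the other 12. With the Y-linked covariate the log2 fold changes of Sst, Hhex and Sstr2 were 1.03, 1.01 and -0.60, and without the 2 libraries lacking Y-linked counts, chosen after the data were seen, 1.10, 1.09 and -0.58; Sst and Hhex then passed the threshold and Sstr2 did not. Sstr2 also did not pass in edgeR (-0.71), edgeR without a filter on low counts (-0.70), DESeq2 without independent filtering (-0.71, adjusted p = 0.0747) and with counts divided by 2 (-0.71, 0.051). Sstr3 was -0.03 without the 2 deepest libraries. Leaving out each library in turn gave 0.36 to 0.84 for Sst, 0.44 to 0.83 for Hhex, 0.33 to 0.65 for Sstr1, -0.85 to -0.60 for Sstr2 and -0.11 to 0.12 for Sstr3. Of the listed genes 10 were called, 1 in edgeR and 3 to 12 when a library was left out. The counts of calls over all genes were 792 in DESeq2 and 203 in edgeR. The cause of these shifts was not tested.

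Without dividing by exon length, the receptor shares were 0.495% and 0.705% for Sstr1 (control and KO), 5.91% and 3.63% for Sstr2, and 93.5% and 95.7% for Sstr3. Replicate numbers 1 and 2 are shared by the groups, but the labels tie them to no common source. Deviations from the group means, over 12766 genes, correlated at 0.29 for control 1 with KO 1 (-0.24 to 0.10 for the other controls) and at 0.28 for control 2 with KO 2, below the 0.38 of control 3 with KO 2. In those 4 libraries, a fit with the replicate block gave 0.25 for Sst, 0.14 for Hhex, -0.72 for Sstr2 (adjusted p = 0.112) and -0.11 for Sstr3, and one without the block 0.33, 0.16, -0.71 (0.0292) and -0.11. Cort, Sstr4 and Sstr5 are limited by depth.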
